A study of Mus musculus with 9 samples.

Results

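The guanylate-binding proteins (GBPs) were followed at the level of RNA in CD4+ T cells before and after their conversion into induced regulatory T cells (iTreg cells). Members were chosen by gene symbol, as every row of the deposited table named Gbp followed by digits and optionally a letter, which gave 11 of 14912 rows: Gbp1 to Gbp11. The family was put forward with its levels in the 3 groups already known. Those levels, and all differences between groups that rest on them, are therefore given as a description, and no p-value is attached to a family member. GBPs are large, dynamin-like GTPases whose genes are switched on by interferons, most of all by interferon gamma (IFN-γ). In an infected cell they assemble on the vacuoles of intracellular parasites and on bacteria, break these membranes open and feed inflammasome sensors. The textbook route to their genes starts at the IFN-γ receptor and the kinases Jak1 and Jak2 and includes the transcription factor Irf1.

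The cells came from mice of the strain B6.Cg-Foxp3tm2(EGFP)Tch/J, hemizygous for Foxp3<tm2Tch>, in which the Foxp3 gene, the master regulator of Treg cells, also drives eGFP. All 3 groups carry this reporter, and each had 3 libraries. Day 0 cells were eGFP-negative CD4+ T cells with no culture treatment. For the TGFβ-iTreg group, cells were cultured for 5 days with TGFβ (10 ng/ml) and IL-2 (300 U/ml) plus anti-CD3 and anti-CD28 (each 1 µg/ml), and eGFP-positive cells were taken. For the mTO-iTreg group, eGFP-positive cells were likewise taken on day 5, here from a co-culture with organoids of mouse colorectal tumours; IL-2 was at 20 U/ml, the antibodies were the same, and no added TGFβ is listed. IL-2 dose, TGFβ and organoids therefore differ together between both iTreg groups and cannot be told apart. The labels do not say whether replicates came from separate mice or cultures, so p-values measure the spread between these samples, which may be technical. In bulk RNA, fewer cells of a type and less RNA per cell cannot be told apart.

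Levels are normalized counts, that is, counts of 3′ ends after division by each library's size factor. Total counts ran from 2078223 to 9944952 per library, and a single count was worth 0.494 to 2.69 normalized counts, the most in day 0 replicate 2 and TGFβ-iTreg replicate 1. The T cell markers Cd3d, Cd3e, Cd3g, Cd4, Cd2, Cd5 and Lck were above 0 in all 9 libraries. Their summed level was lower in both iTreg groups, at 26449 to 28732 on day 0, 16379 to 17934 in TGFβ-iTreg cells and 19044 to 23154 in mTO-iTreg cells, with no overlap between groups. The reporter eGFP was at 26.3 to 86.5 on day 0, 588 to 695 in TGFβ-iTreg cells and 262 to 462 in mTO-iTreg cells. Foxp3 itself had the other order between the iTreg groups, at 0 to 8.77 on day 0, 14.8 to 19.7 in TGFβ-iTreg cells and 37.2 to 81.0 in mTO-iTreg cells. Of 12 myeloid and antigen-presenting markers, 9 were in the table. Their summed level was 2072, 1293 and 8072 in day 0 replicates 1, 2 and 3, from 861 to 1161 in TGFβ-iTreg cells and from 2334 to 3440 in mTO-iTreg cells, and Cd14 was at 0 in 8 of the 9 libraries. Of 5 B cell markers, 4 were in the table. They summed to 10.5, 10.8 and 57.0 in day 0 replicates 1, 2 and 3, 30.6 to 69.2 in TGFβ-iTreg cells and 61.1 to 104 in mTO-iTreg cells. The summed CD8 T and NK cell markers (4 of 5 in the table) were highest in mTO-iTreg cells, at 588 to 1360, against 159 to 301 on day 0 and 167 to 204 in TGFβ-iTreg cells. Of 10 epithelial markers, 5 were in the table. They summed to 10.5 to 18.8 on day 0, 127 to 138 in TGFβ-iTreg cells and 34.1 to 114 in mTO-iTreg cells. Krt18 was at 0 in 7 of the 9 libraries, and Krt18, Vil1 and Lgr5 were all at 0 in TGFβ-iTreg replicates 2 and 3. The part of these other-cell markers in the family's levels was not tested.

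Mouse GBP genes lie in a cluster on chromosome 3 and another on chromosome 5. On chromosome 3 (GRCm38, GENCODE M21, plus strand) the order was Gbp5 (142493978 to 142522344), Gbp7 (142530342 to 142550149), Gbp3 (142560026 to 142573209), Gbp1 (142594847 to 142619179, annotated as Gbp2b) and Gbp2 (142620602 to 142638008). On chromosome 5 (minus strand) it was Gbp8 (105014150 to 105139540), Gbp9 (105077630 to 105139539), Gbp4 (105115767 to 105139586), Gbp10 (105215699 to 105239533), Gbp6 (105270702 to 105293698) and Gbp11 (105323042 to 105346472), the last annotated as a polymorphic pseudogene. Gbp4, Gbp8 and Gbp9 overlap on 1 strand and share exon bases. The annotation's 3′ ends show how far 3′-end reads could be split between copies: of 55 pairs of members, 4 shared an exact run of at least 50 bases within the last 500 bases of a transcript. These were Gbp6 with Gbp9 (83 bases), Gbp4 with Gbp6 (78), Gbp10 with Gbp11 (76) and Gbp8 with Gbp9 (66), all on chromosome 5. How reads that fit several places were handled is not given in the sources used here, so the levels of the chromosome 5 members are uncertain. The longest run that Gbp2 shared with any other member was 23 bases and that of Gbp3 was 34, both with Gbp4.

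The promoters of the chromosome 3 members are shown because these genes neighbour each other and are known interferon targets, yet their levels differed in opposite directions between the groups. RefSeq held promoters for 5 of the 11 members (GRCm38.p6, plus strand). The 250 bases before the start are printed 5′ to 3′, with 2 motifs in capitals: an interferon-stimulated response element (ISRE, searched on both strands as GAAA, any 2 bases, and GAAA again), bound by IRF factors, and an IFN-γ-activated site (GAS, searched as TTCNNNGAA, which reads the same on both strands), an element of many IFN-γ-responsive genes. The places are chr3:142594597-142594846 for Gbp1, chr3:142620413-142620662 for Gbp2, chr3:142559794-142560043 for Gbp3, chr3:142496684-142496933 for Gbp5 and chr3:142530086-142530335 for Gbp7.
Gbp1: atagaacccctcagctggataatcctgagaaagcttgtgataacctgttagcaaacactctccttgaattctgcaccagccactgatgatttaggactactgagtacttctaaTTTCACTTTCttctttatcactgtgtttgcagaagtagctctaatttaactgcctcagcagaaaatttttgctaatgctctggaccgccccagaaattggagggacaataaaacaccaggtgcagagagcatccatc
Gbp2: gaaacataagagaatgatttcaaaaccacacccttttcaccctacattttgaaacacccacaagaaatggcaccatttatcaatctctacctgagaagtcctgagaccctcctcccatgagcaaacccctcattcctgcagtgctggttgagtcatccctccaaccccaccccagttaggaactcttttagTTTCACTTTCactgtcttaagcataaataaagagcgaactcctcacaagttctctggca
Gbp3: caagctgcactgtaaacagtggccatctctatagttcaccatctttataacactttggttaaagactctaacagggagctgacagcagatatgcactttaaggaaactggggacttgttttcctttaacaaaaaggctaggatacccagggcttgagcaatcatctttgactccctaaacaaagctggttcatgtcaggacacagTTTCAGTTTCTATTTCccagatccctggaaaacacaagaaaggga
Gbp5: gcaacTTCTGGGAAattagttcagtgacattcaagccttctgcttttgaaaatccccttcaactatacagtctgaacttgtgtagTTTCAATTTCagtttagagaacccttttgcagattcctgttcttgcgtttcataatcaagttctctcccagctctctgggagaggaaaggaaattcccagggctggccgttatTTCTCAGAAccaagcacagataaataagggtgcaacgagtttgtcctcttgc
Gbp7: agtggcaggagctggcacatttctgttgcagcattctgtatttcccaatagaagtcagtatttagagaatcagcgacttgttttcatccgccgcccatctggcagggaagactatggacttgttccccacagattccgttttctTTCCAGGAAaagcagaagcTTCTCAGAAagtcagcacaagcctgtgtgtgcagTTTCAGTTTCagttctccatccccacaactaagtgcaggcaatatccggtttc

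Each of these 5 promoters held an ISRE match, whose first base lay 137 bases before the start in Gbp1, 59 in Gbp2, 165 in Gbp5 and 53 in Gbp7. In Gbp3 a pair of overlapping matches lay 45 and 39 bases before the start, and a second Gbp3 start in RefSeq had none. GAS matches were present in Gbp5 (245 and 52 bases before the start) and in Gbp7 (106 and 87), and no match to these letters was in the windows of Gbp1, Gbp2 and Gbp3. Of all 32851 RefSeq promoters of the same length, 2.98% held the ISRE letters and 7.02% the GAS letters. The palindromic SMAD motif GTCTAGAC, an element of the TGFβ pathway, was in 0.167% of promoters and in none of the 6 printed or named here. No ISRE match overlapped a GAS match. Starts here are those of RefSeq and can differ from the GENCODE gene starts given above. The printed windows of Gbp2 and Gbp3 run into the GENCODE span of their gene, and the Gbp2 match lies inside it. The Gbp5 window lies wholly inside the span of its gene. A match is a description of letters, not a binding site.

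The family as a whole was high in TGFβ-iTreg cells. Summed normalized counts of the 11 genes were 2905, 2634 and 3196 on day 0, 14047, 8791 and 11811 in TGFβ-iTreg cells and 1869, 2093 and 1821 in mTO-iTreg cells. Every TGFβ-iTreg library lay above and every mTO-iTreg library below all day 0 libraries. As a share of all counts in a library the family took 0.0494% ± 0.00690 (SD, n = 3), 0.232% ± 0.0483 and 0.0381% ± 0.00365 in that order. The chromosome 3 members summed to 1633 ± 266 on day 0, 10616 ± 2487 in TGFβ-iTreg cells and 977 ± 75.1 in mTO-iTreg cells. The chromosome 5 members summed to 1279 ± 16.0, 934 ± 151 and 951 ± 86.5, the lower level being shared by both iTreg groups. Gbp2 alone made up 36.9% ± 6.55 of the family's counts on day 0, 81.1% ± 0.486 in TGFβ-iTreg cells and 20.9% ± 3.40 in mTO-iTreg cells. Without Gbp2 the sums were 1827 ± 98.0, 2171 ± 454 and 1527 ± 167.

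**Figure D1:**
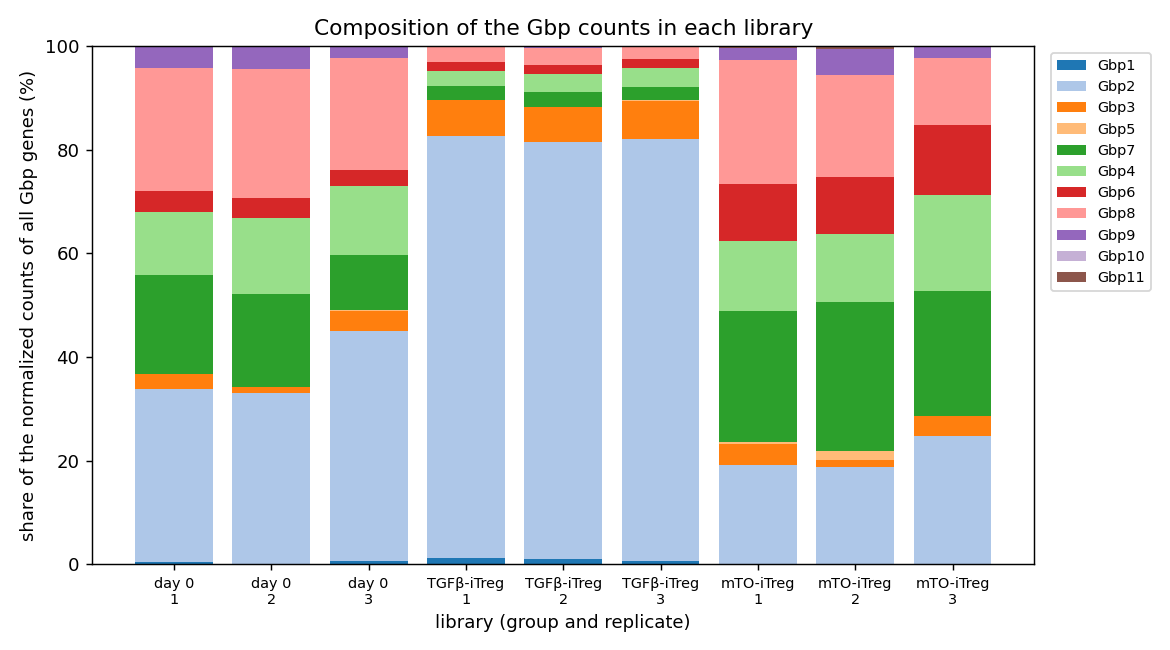
Share of each gene in the summed normalized counts of the 11 Gbp genes (y axis, percent) in each of the 9 libraries (x axis, group and replicate), with no correction for transcript length. Gbp2 takes 80.6% to 81.5% of the TGFβ-iTreg bars, against 33.0% to 44.4% on day 0 and 18.7% to 24.8% in mTO-iTreg cells.

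Gbp2, Gbp3 and Gbp1 were the members with every TGFβ-iTreg library above all libraries of both other groups. The share of all genes with this arrangement was not counted, so nothing particular to the family is read from it. Gbp2, a prenylated GBP that acts against Toxoplasma vacuoles, was at 965, 868 and 1420 on day 0, 11432, 7084 and 9621 in TGFβ-iTreg cells, and 358, 391 and 452 in mTO-iTreg cells. None of the 3 groups overlapped, and the order was mTO-iTreg, day 0, TGFβ-iTreg. On the log2(normalized count + 1) scale used for all differences, the Gbp2 difference (± SE) was 3.12 ± 0.20 between TGFβ-iTreg and day 0 cells, an 8.65-fold higher mean. It was -1.41 ± 0.20 between mTO-iTreg and day 0 cells (2.71-fold lower) and -4.53 ± 0.20 between mTO-iTreg and TGFβ-iTreg cells (23.4-fold lower). Day 0 replicate 3 had the highest day 0 sums of myeloid and antigen-presenting markers (8072, with the MHC class II gene H2-Ab1 at 2463) and of B cell markers (57.0). It was also the highest day 0 library for Gbp2. Without it the Gbp2 difference was 3.33 for TGFβ-iTreg and -1.20 for mTO-iTreg cells against day 0. The TGFβ-iTreg libraries also had the highest epithelial marker sums (127 to 138), though Krt18, Vil1 and Lgr5 were all at 0 in replicates 2 and 3. The part of these markers in the Gbp2 level was not tested.

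Gbp3, another chromosome 3 member, was at 86.0, 34.9 and 127 on day 0, 967, 584 and 863 in TGFβ-iTreg cells and 75.0, 29.2 and 67.8 in mTO-iTreg cells. The TGFβ-iTreg libraries stood apart, while the mTO-iTreg and day 0 libraries overlapped. The Gbp3 difference was 3.42 ± 0.44 for TGFβ-iTreg against day 0 (9.75-fold), -0.45 ± 0.44 for mTO-iTreg against day 0 and -3.87 ± 0.44 for mTO-iTreg against TGFβ-iTreg cells (14.0-fold lower). Gbp1, a prenylated GBP that coats parasite vacuoles, was at 15.8, 0 and 17.9 on day 0, 169.7, 83.4 and 73.1 in TGFβ-iTreg cells and 0 in all 3 mTO-iTreg libraries. A level of 0 there allows up to 0.655 normalized counts (3 counts over the group). Against this bound the level from pooled counts was 133-fold higher in TGFβ-iTreg cells (87.1) and 21.0-fold higher on day 0 (13.8). Pooled levels weight libraries by depth, unlike the means behind the other folds. The day 0 level rests on 26 counts, whose own error is not in the bound. The fitted Gbp1 difference between mTO-iTreg and day 0 cells was -2.77 ± 1.00. Day 0 replicate 2, which has the highest value of a single count, was at 0 as well, so the day 0 and mTO-iTreg libraries overlapped. The Gbp1 difference between TGFβ-iTreg and day 0 cells was 3.90 ± 1.00, a 9.67-fold higher mean.

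**Figure D2:**
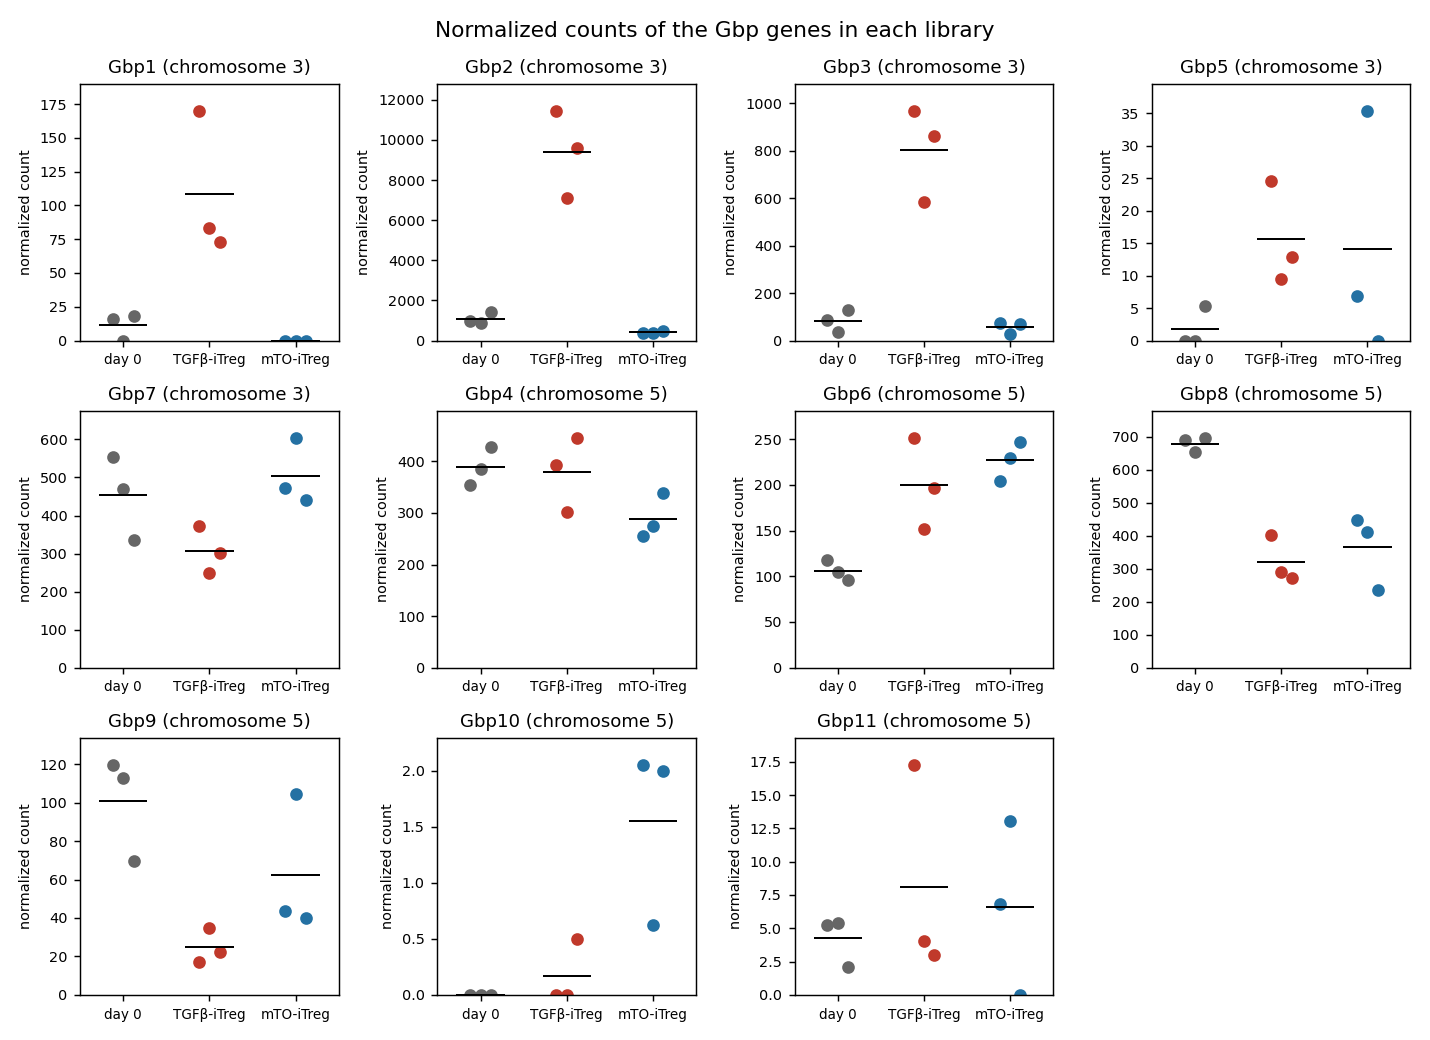
Normalized counts (y axes, linear, each with its own range from 0) of the 11 Gbp genes in the 3 groups (x axes): points are libraries 1 to 3 from left to right and the line is the mean. Gbp1, Gbp2 and Gbp3 are highest in all TGFβ-iTreg libraries, Gbp8 is highest in all day 0 libraries, and Gbp6 is lowest in all day 0 libraries. The shares of all genes with these arrangements were not counted.

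The other chromosome 3 members, Gbp5 and Gbp7, had other patterns. Gbp5, which promotes inflammasome assembly, was rarely read, at 0, 0 and 5.27 on day 0, 24.6, 9.49 and 12.8 in TGFβ-iTreg cells, and 6.82, 35.4 and 0 in mTO-iTreg cells. These values rest on 5, 50 and 67 counts per group. The TGFβ-iTreg libraries lay above the day 0 libraries, and the mTO-iTreg libraries spanned both. The Gbp5 difference was 3.07 ± 1.20 for TGFβ-iTreg and 1.83 ± 1.20 for mTO-iTreg cells against day 0. The latter value turned on single libraries, at 0.60 without mTO-iTreg replicate 2 and 3.19 without mTO-iTreg replicate 3. Between mTO-iTreg and TGFβ-iTreg cells the Gbp5 difference was -1.24, and it changed sign to 0.12 without mTO-iTreg replicate 3. Gbp7, known to act with oxidant-producing and autophagy proteins, was at 553, 470.4 and 335 on day 0, 371, 249.6 and 302 in TGFβ-iTreg cells and 472, 603 and 439.7 in mTO-iTreg cells. All mTO-iTreg libraries lay above all TGFβ-iTreg libraries, and day 0 overlapped with both. The Gbp7 difference between mTO-iTreg and TGFβ-iTreg cells was 0.72 ± 0.22 (1.64-fold), the opposite direction to Gbp1, Gbp2 and Gbp3.

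On chromosome 5, Gbp8 and Gbp9 had their highest means on day 0 and Gbp6 its lowest. Gbp8 was at 689, 653 and 695 on day 0, 403, 289 and 272 in TGFβ-iTreg cells and 447, 412 and 234 in mTO-iTreg cells, so that both iTreg groups lay below every day 0 library and overlapped with each other. The Gbp8 difference from day 0 was -1.10 ± 0.23 in TGFβ-iTreg cells (2.11-fold lower) and -0.95 ± 0.23 in mTO-iTreg cells (1.86-fold lower). Gbp9 was at 119, 113 and 69.6 on day 0, 17.2, 34.6 and 22.2 in TGFβ-iTreg cells and 43.7, 104 and 39.9 in mTO-iTreg cells. The TGFβ-iTreg libraries were the lowest for Gbp9, and the mTO-iTreg libraries overlapped with day 0. The Gbp9 difference between TGFβ-iTreg and day 0 cells was -2.00 ± 0.45 (4.08-fold lower). Gbp8 and Gbp9 share exon bases and a 3′ run, so their levels are not independent readings.

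Gbp6 was at 118, 105 and 96.0 on day 0, 251, 151 and 197 in TGFβ-iTreg cells and 204, 229.5 and 247 in mTO-iTreg cells. Both iTreg groups lay above all day 0 libraries and overlapped with each other. The Gbp6 difference from day 0 was 0.88 ± 0.23 in TGFβ-iTreg cells (1.88-fold) and 1.09 ± 0.23 in mTO-iTreg cells (2.14-fold). Gbp4 was the member with the least difference between day 0 and TGFβ-iTreg cells (-0.05 ± 0.19). It was at 354, 384 and 427 on day 0, 394, 302 and 445 in TGFβ-iTreg cells and 254, 275 and 338 in mTO-iTreg cells. The mTO-iTreg libraries lay below all day 0 libraries for Gbp4, with a difference of means of -0.43 ± 0.19. Gbp11 was near the limit of detection in every group, at 2.11 to 5.38 on day 0, 2.96 to 17.2 in TGFβ-iTreg cells and 0 to 13.0 in mTO-iTreg cells. Gbp10 had 0, 1 and 7 counts in the 3 groups and was not tested, since 0 libraries reached a value of 5.

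A linear model was fitted with limma to the 10983 genes that reached 5 normalized counts in 3 or more libraries, and a gene counts as called here when its p adjusted over all of them (Benjamini-Hochberg) was under 0.05. Of the 11 members 10 passed this filter. Between TGFβ-iTreg and day 0 cells, 4 members were called higher (Gbp1, Gbp2, Gbp3, Gbp6), against 9.78% of all genes tested, and 2 lower (Gbp8, Gbp9), against 8.8%. Between mTO-iTreg and day 0 cells, 1 was called higher (Gbp6), against 19.4% of all genes, and 3 lower (Gbp1, Gbp2, Gbp8), against 14.5%. Between mTO-iTreg and TGFβ-iTreg cells, 1 was called higher (Gbp7), against 14.9%, and 3 lower (Gbp1, Gbp2, Gbp3), against 11.8%. Since these contrasts chose the family, nothing is read from the counts. Median differences of the 10 genes were 0.70, -0.44 and -0.48 in the same order, where those of all genes were -0.02, 0.09 and 0.13, and the medians were the same with Gbp1 at its bound. Both comparisons against day 0 share its 3 libraries.

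**Figure D3:**
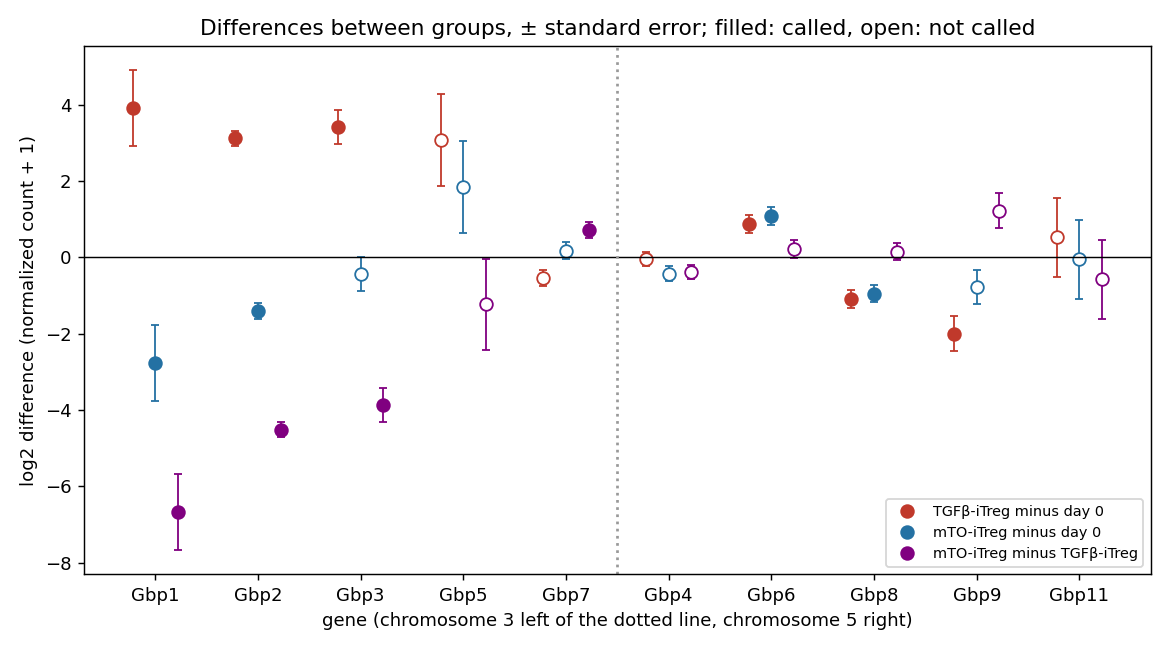
Differences of group means (y axis, log2 of normalized count + 1, ± standard error, n = 3 libraries per group) for the 10 tested Gbp genes (x axis) in the 3 contrasts. Gbp2 has 3 called differences, 3.12, -1.41 and -4.53. Gbp6 and Gbp8 differ from day 0 in the same direction in both iTreg groups.

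Several of these calls depended on single libraries. Gbp1 was not called between TGFβ-iTreg and day 0 cells without TGFβ-iTreg replicate 1 (difference 3.53), and Gbp6 was not called in that contrast without the same library (0.70), day 0 replicate 3 or TGFβ-iTreg replicate 3. Gbp1 lost its call between mTO-iTreg and day 0 cells under 13 of 22 other settings, among them leaving out any library except day 0 replicate 2. Gbp7 lost its call without TGFβ-iTreg replicate 2 or 3 or mTO-iTreg replicate 2. The same call was also lost with libraries scaled by trimmed means (TMM) and with no variance trend. Gbp5 was called higher in both iTreg groups against day 0 without mTO-iTreg replicate 3, the library where it was at 0. TGFβ-iTreg replicate 1, the shallowest library of all, had the highest value of its group for Gbp1, Gbp2, Gbp3, Gbp5, Gbp6, Gbp7, Gbp8 and Gbp11. With both day 0 replicate 2 and TGFβ-iTreg replicate 1 left out, the difference was 2.15 for Gbp1, 2.82 for Gbp2 and 2.75 for Gbp3, and 3 of the members stayed called in that contrast: Gbp2, Gbp3 and Gbp8. A single form of library code marks the mTO-iTreg libraries, and another form the remaining 6. Group and code form cannot be told apart.

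Across the 9 libraries Gbp1, Gbp2 and Gbp3 followed each other on the log2 scale. Pearson r was 0.935 for Gbp1 and Gbp2, 0.920 for Gbp1 and Gbp3 and 0.947 for Gbp2 and Gbp3. Gbp3 and Gbp9 ran opposite, with r = -0.849, and Gbp2 and Gbp7 had r = -0.780. These correlations describe libraries that share group and depth. Among 8434 well-read genes, the 5 whose log2 levels followed Gbp2 most closely over the 9 libraries were Arsb (r = 0.997), Stard7 (0.988), Slc25a5 (0.986), Eif3l (0.980) and Unc5cl (0.977). Arsb, a lysosomal sulfatase, had means of 95.3, 276 and 53.5 (day 0, TGFβ-iTreg, mTO-iTreg). For Gbp8, the closest were St3gal6 (r = 0.968), a sialyltransferase, with means of 73.1, 14.1 and 25.8, Rgl2 (0.966), BC016423 (0.960), Kif1b (0.956) and Dnahc8 (0.949).

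The list of IFN-γ signalling genes holds inhibitors and other related genes besides those that lead to GBP transcription. Ifngr1, Irf1, Irf8 and the inhibitors Socs1 and Socs3 were called higher than day 0 in both iTreg groups, while Jak1 was called lower in both. Of 15 tested members of this signalling list, 6 rose and 2 fell in TGFβ-iTreg cells against day 0, 8 rose and 2 fell in mTO-iTreg cells against day 0, and 5 were higher in mTO-iTreg than in TGFβ-iTreg cells (limma, adjusted p under 0.05). Over all genes 9.78%, 19.4% and 14.9% were called higher in these contrasts, and 8.8%, 14.5% and 11.8% lower, so nothing is read from the falls. The list's median log2 differences were 0.12, 0.43 and 0.33, against -0.02, 0.09 and 0.13 for all genes. Ifng itself, the ligand, was rarely read, with means of 18.0 ± 15.9 (SD, n = 3) on day 0, 17.9 ± 27.2 in TGFβ-iTreg cells and 3.33 ± 3.82 in mTO-iTreg cells, and passed no test. The receptor chain Ifngr1 rose from 603 ± 111 to 1918 ± 523 in TGFβ-iTreg cells (adjusted p = 0.00013, limma) and 2874 ± 487 in mTO-iTreg cells (adjusted p = 3.2e-06, limma). The partner chain Ifngr2 was at 277 ± 37.2, 181 ± 62.1 and 769.6 ± 202, higher in mTO-iTreg cells than in both other groups (adjusted p = 0.0005 and 4.1e-05, limma). Jak1 fell from 3414 ± 103 to 2217 ± 180 and 2124 ± 153 (adjusted p = 0.0015 and 0.00032, limma). Jak2 was higher in mTO-iTreg cells, at 559.6 ± 55.8 against 245 ± 30.9 on day 0 (adjusted p = 0.00022, limma).

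Irf1, an IFN-γ-induced factor that binds ISREs, rose in both iTreg groups, from 912 ± 34.5 to 1343 ± 96.9 and 1238 ± 175 (adjusted p = 0.011 and 0.023, limma). Irf8, a related factor, rose further, from 100.0 ± 25.7 to 837 ± 152 and 1665 ± 633 (adjusted p = 7.9e-06 and 1.6e-07, limma), with mTO-iTreg above TGFβ-iTreg cells (adjusted p = 0.014, limma). The feedback inhibitor Socs1 rose to like means in both, from 551 ± 103 to 2467 ± 431 and 2571 ± 516. Socs3, a related inhibitor, reached 581 ± 62.5 in mTO-iTreg cells, against 107 ± 10.8 on day 0 and 174 ± 26.1 in TGFβ-iTreg cells. The phosphatase Ptpn6 fell in both groups against day 0, and Nlrc5, a transactivator of MHC class I genes, rose in mTO-iTreg cells against day 0 (211 ± 53.9 to 346 ± 36.9). The calls of Irf1 in mTO-iTreg cells (without day 0 replicate 1 or mTO-iTreg replicate 2 or 3), Ptpn6 in mTO-iTreg cells (without day 0 replicate 2 or mTO-iTreg replicate 3) and Nlrc5 (without day 0 replicate 2) were lost with 1 library left out. The same held for the calls between the iTreg groups of Irf8 (without TGFβ-iTreg replicate 3 or mTO-iTreg replicate 2, highest adjusted p = 0.070 over 22 alternatives, limma) and of Ifngr1 (without TGFβ-iTreg replicate 3 or mTO-iTreg replicate 2 or 3), and for Socs3 in TGFβ-iTreg cells against day 0 (without day 0 replicate 2 or 3 or TGFβ-iTreg replicate 2). The 2 falls in mTO-iTreg cells against day 0 became 1 without day 0 replicate 2 or mTO-iTreg replicate 3, and under equal totals. The 5 genes of the list that were higher in mTO-iTreg than in TGFβ-iTreg cells became 3 without TGFβ-iTreg replicate 3 and with no variance trend. Irf8 and Ifngr2 were highest where the CD8 T and NK cell markers summed to 588 to 1360 and myeloid and antigen-presenting markers to 2334 to 3440. The part of such cells was not tested. Irf2, Irf9 and Ptpn2 were called in none of the 3 contrasts, at means between 415 and 869.

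The immunity-related GTPases, the other family of IFN-γ-induced GTPases that act on parasite vacuoles, followed Gbp2 in part. All 6 tested members rose in TGFβ-iTreg cells against day 0, 3 rose in mTO-iTreg cells, and 5 were lower in mTO-iTreg than in TGFβ-iTreg cells (limma, adjusted p under 0.05). Over all genes 9.78%, 19.4% and 14.9% were called higher in these contrasts, and 8.8%, 14.5% and 11.8% lower. Their median log2 differences were 1.83, 0.85 and -1.03 for the listed GTPases, against -0.02, 0.09 and 0.13 for all genes. Igtp (Irgm3) was at 862 ± 107 on day 0, 3932 ± 834 in TGFβ-iTreg cells and 2829 ± 283 in mTO-iTreg cells. Unlike Gbp2 it was higher than day 0 in both groups (adjusted p = 4.7e-06 and 4.1e-06, limma). Ifi47 was at 2604 ± 183, 5245 ± 736 and 2604 ± 514, higher in TGFβ-iTreg cells than on day 0 (adjusted p = 0.0005, limma). Irgm1, a regulator of the other GTPases, was at 168 ± 74.6, 379 ± 59.7 and 136 ± 54.0 and was lower in mTO-iTreg than in TGFβ-iTreg cells (adjusted p = 0.0035, limma). Iigp1 was at 115 ± 41.3, 679 ± 349 and 195 ± 73.9, and Gm12250 at 56.0 ± 25.7, 397 ± 116 and 191 ± 54.3. The call of Irgm1 against day 0 was lost without day 0 replicate 2 or 3 or TGFβ-iTreg replicate 1 or 3. The 5 lower calls between the iTreg groups became 3 without TGFβ-iTreg replicate 1 or 3, or without mTO-iTreg replicate 1 or 3, and when the shallowest day 0 and TGFβ-iTreg libraries were left out together.

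Other IFN-γ-inducible genes were mixed. Of 22 tested, 7 rose and 1 fell in TGFβ-iTreg cells against day 0, 11 rose and 4 fell in mTO-iTreg cells against day 0, and 3 were higher and 5 lower in mTO-iTreg than in TGFβ-iTreg cells (limma, adjusted p under 0.05). Over all genes the shares called higher were 9.78%, 19.4% and 14.9% in these contrasts, and those called lower 8.8%, 14.5% and 11.8%. The list's median log2 differences were 0.42, 0.57 and 0.02, against -0.02, 0.09 and 0.13 for all genes. Serpina3g, a protease inhibitor, had the pattern of Gbp2, at 49.4 ± 31.5 on day 0, 179.7 ± 73.8 in TGFβ-iTreg cells and 3.93 ± 0.191 in mTO-iTreg cells (adjusted p = 0.033 and 0.0018 against day 0, limma). Tap1, the peptide transporter of antigen presentation, went the other way between the iTreg groups, at 514 ± 75.3, 736 ± 155 and 1594 ± 294, and was higher in mTO-iTreg than in TGFβ-iTreg cells (adjusted p = 0.0006, limma). Ifi30, a lysosomal thiol reductase, fell in TGFβ-iTreg cells, from 209.7 ± 41.9 to 77.4 ± 32.8, and was at 309 ± 43.1 in mTO-iTreg cells. The tryptophanyl-tRNA synthetase Wars rose in both, from 74.0 ± 6.11 to 298 ± 93.9 and 218 ± 93.4. The adhesion molecule Icam1 rose in both too, from 90.6 ± 25.8 to 191 ± 46.9 and 265 ± 80.6, and Gch1, of biopterin synthesis, in mTO-iTreg cells, from 41.5 ± 6.24 to 123 ± 26.0. Serpina3g in TGFβ-iTreg cells lost its call without day 0 replicate 2 or TGFβ-iTreg replicate 1 or 3, Icam1 in TGFβ-iTreg cells without day 0 replicate 1 or 2 or TGFβ-iTreg replicate 3, and Gch1 in mTO-iTreg cells without day 0 replicate 2 or mTO-iTreg replicate 1 or 2. The 7 rises in TGFβ-iTreg cells became 13 with libraries scaled to equal totals, and 1 with no variance trend, 1 without day 0 replicate 2, 4 without day 0 replicate 3, 3 without TGFβ-iTreg replicate 1 and 2 without TGFβ-iTreg replicate 3. The 11 rises in mTO-iTreg cells became 7 without day 0 replicate 3, or without mTO-iTreg replicate 2 or 3, and 5 with no variance trend. The 5 lower calls between the iTreg groups became 3 without TGFβ-iTreg replicate 1 or mTO-iTreg replicate 1.

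Most genes stimulated mainly by type I interferon ran opposite to Gbp2 between both iTreg groups. Of 23 tested, 13 fell in TGFβ-iTreg cells against day 0, 3 rose and 4 fell in mTO-iTreg cells against day 0, and 14 were higher in mTO-iTreg than in TGFβ-iTreg cells (limma, adjusted p under 0.05). In TGFβ-iTreg cells against day 0 the count of rises was 0, also at an unadjusted p under 0.05 in limma and with limma-voom on recovered counts. The median log2 difference from day 0 was -1.60 for TGFβ-iTreg cells and 0.36 for mTO-iTreg cells, against -0.02 and 0.09 for all genes. Over all genes 9.78%, 19.4% and 14.9% were called higher in the 3 contrasts, and 8.8%, 14.5% and 11.8% lower. The 3 rises and 4 falls in mTO-iTreg cells are near these shares, and nothing is read from them. Rsad2, an antiviral enzyme, was at 29.2 ± 11.2, 0.678 ± 1.17 and 53.1 ± 12.4 in the order day 0, TGFβ-iTreg, mTO-iTreg (adjusted p = 9.4e-05 between the iTreg groups, limma). Oas2, an antiviral sensor, fell from 26.2 ± 8.10 to 0.494 ± 0.856 in TGFβ-iTreg cells and was at 16.6 ± 7.33 in mTO-iTreg cells. Usp18, which damps type I interferon signalling, was at 85.2 ± 49.7, 26.8 ± 10.6 and 209 ± 67.2. Against day 0, its call as lower in TGFβ-iTreg cells was lost in 19 of 22 alternatives. Its call as higher in mTO-iTreg cells was lost in 4 of 22. Other genes of the list had another pattern. Oasl1 fell in both iTreg groups against day 0 (-3.96 and -3.43), as did Herc6 (-1.84 and -1.78). Between the iTreg groups they were not called (0.54 and 0.07). Oas1b fell in mTO-iTreg cells against day 0 (-2.61) and was not called between the iTreg groups (-1.40). Each of these calls was lost without some single library. Ifnar2, a chain of the type I receptor, rose from 311 ± 90.5 to 468 ± 43.5 and 1323 ± 76.7, and Stat2 from 128 ± 30.8 to 329 ± 110 in mTO-iTreg cells (adjusted p = 0.002, limma). The Ifnar2 call in TGFβ-iTreg cells was lost without day 0 replicate 1 or 2 or TGFβ-iTreg replicate 1 or 2. The 13 falls in TGFβ-iTreg cells became 5 without day 0 replicate 1, 7 without TGFβ-iTreg replicate 1 and 6 without TGFβ-iTreg replicate 2. The 14 genes higher in mTO-iTreg cells became 8 without mTO-iTreg replicate 3. In mTO-iTreg cells against day 0 the balance of 3 rises and 4 falls was not stable. It was 6 and 3 with libraries scaled to equal totals or without mitochondrial genes and Rn45s, 5 and 1 without day 0 replicate 1, and 1 and 4 without mTO-iTreg replicate 2. The falls were 1 without day 0 replicate 2, and 2 without day 0 replicate 3 or mTO-iTreg replicate 1 or 3.

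**Figure D4:**
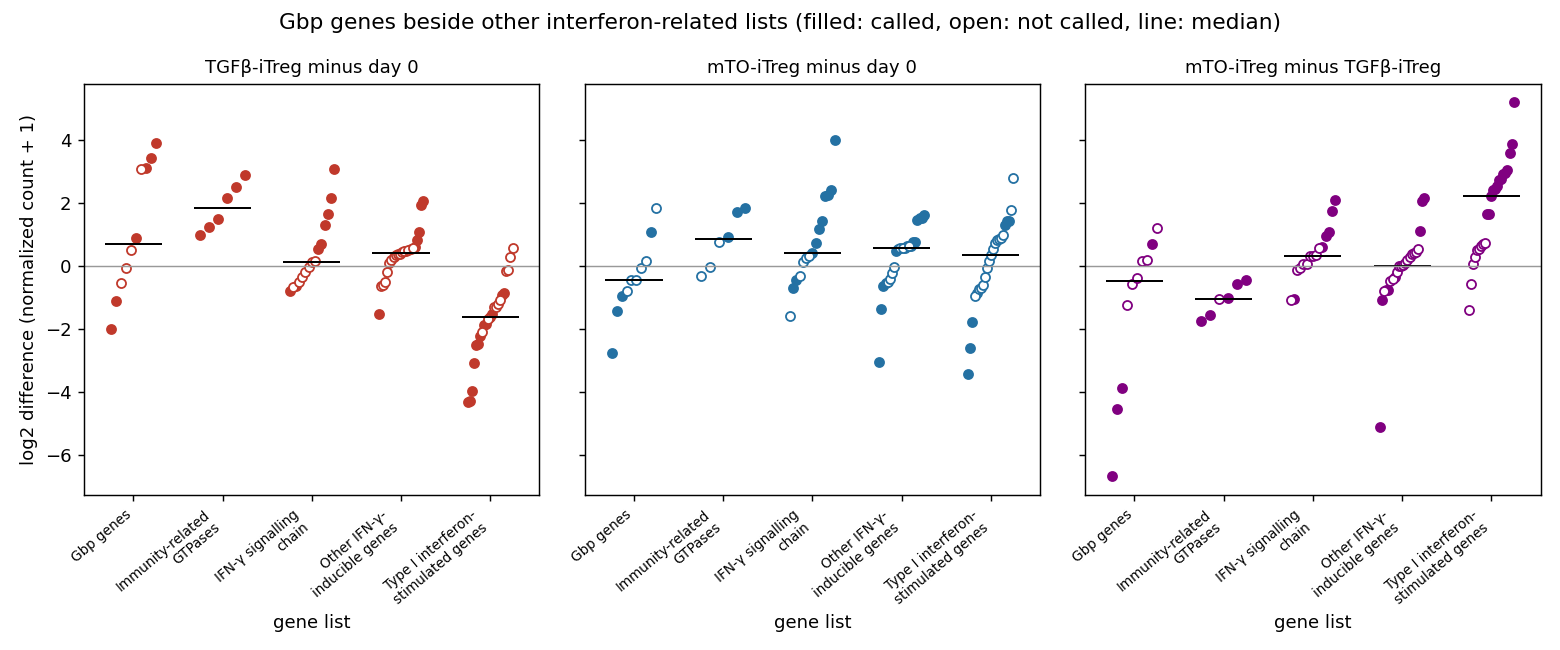
Differences of group means (y axis, log2 of normalized count + 1) for the tested genes of 5 lists (x axis) in the 3 contrasts, 1 point per gene. The median of type I interferon-stimulated genes is -1.60 where that of the immunity-related GTPases is 1.83 (TGFβ-iTreg minus day 0), and 2.21 where the latter is -1.03 (mTO-iTreg minus TGFβ-iTreg).

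Genes for proteins that place and use GBPs were followed in 3 lists. Their counts stand beside shares over all genes of 9.78% higher and 8.8% lower in TGFβ-iTreg cells against day 0, and 19.4% higher and 14.5% lower in mTO-iTreg cells against day 0, and nothing particular to these lists is read from them. The LC3-type conjugation system is needed to bring GBPs to vacuoles, and of its 10 tested genes 3 rose in TGFβ-iTreg cells against day 0, while 3 rose and 3 fell in mTO-iTreg cells. Gabarapl1 rose from 7.41 ± 3.63 to 89.5 ± 23.6 and 163 ± 25.1 (adjusted p = 9e-05 and 4.7e-06, limma), and Map1lc3a from 8.97 ± 4.83 to 61.4 ± 25.4 and 46.7 ± 3.85. Gabarap fell in mTO-iTreg cells, from 4509 ± 161 to 3098 ± 395 (adjusted p = 0.0031, limma). The 3 falls became 1 without day 0 replicate 3 or mTO-iTreg replicate 3. With libraries scaled to equal totals, 5 genes of this list rose in TGFβ-iTreg cells, and 5 rose and 1 fell in mTO-iTreg cells. Prenylation anchors Gbp1, Gbp2 and Gbp5 in membranes. Of 8 genes of protein prenylation and the steps after it, 1 rose in mTO-iTreg cells against day 0. It was the CaaX protease Rce1, from 79.6 ± 17.8 to 182 ± 20.5 (adjusted p = 0.0051, limma). The 8 include Rabggta and Rabggtb, which serve Rab proteins rather than GBPs. Of 6 inflammasome genes 1 fell in mTO-iTreg cells, the adaptor Pycard, from 517 ± 36.9 to 311 ± 31.0 (adjusted p = 0.0041, limma). In TGFβ-iTreg cells against day 0, limma called 0 of the 6 inflammasome and 0 of the 8 prenylation genes. At an unadjusted p under 0.05 these counts were 0 and 1, and limma-voom on recovered counts called 0 in both lists. With equal totals 1 gene of each list was called higher, and without TGFβ-iTreg replicate 3 limma called 1 prenylation gene lower.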

How the data were processed

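The authors deposited a table of normalized counts, 1 row per gene, written with decimal commas. The submitters' processing notes name BWA, DESeq2 and the build mm10. Not given in the sources used here are versions, annotation, strand use and the treatment of reads with several matches. Per the labels' protocols the bulk libraries followed a modified CEL-Seq protocol, which reads transcripts near the 3′ end. Whole counts were recovered by division by what 1 count is worth in a library, and 100% of values came out whole within 0.1; they served for depth and floors. Intervals and floors cover counting error only.

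Members and gene lists were chosen with earlier results of these data known. Differences were fitted in R 4.3.3 with limma 3.58.1 (lmFit, then contrasts.fit and eBayes with trend) on log2(normalized count + 1) over the 9 libraries with 3 group means, for genes with 5 or more in 3 or more libraries, with Benjamini-Hochberg adjustment at 0.05; the code was tested on simulated data. Of other lists, the text names the tested genes of the IFN-γ signalling chain (1 of them is not reported here), and up to 4 called genes per contrast with the largest differences and a mean of at least 20. Alternatives were other pseudocounts (0.5, 5) and low-value filters (none, 20), other scalings, 2-group fits, a replicate block, no variance trend and leaving out each library. Chosen after seeing the data were dropping day 0 replicate 2 together with TGFβ-iTreg replicate 1 (the shallowest of their groups), limma-voom on recovered counts, and size factors from totals that omit Rn45s and mitochondrial genes. Gene positions were matched by symbol to GENCODE M21 for 11 of 11 members, and promoters to RefSeq for 5. Figures were drawn with matplotlib 3.10.9 and tables with pandas 2.3.3 (Python 3.11.15).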

Additional observations from a re-analysis of the deposited data

Results flagged for a closer look

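Gbp2 moved in opposite directions in both iTreg groups. Its log2 difference from day 0 was 3.12 in TGFβ-iTreg cells and -1.41 in mTO-iTreg cells, with all 3 TGFβ-iTreg libraries above and all 3 mTO-iTreg libraries below every day 0 library. Both differences use the same day 0 libraries, and the opposition itself was not tested. Of 10983 genes tested, 149 (1.36%) had the same arrangement of libraries, and 173 (1.58%) had the reverse one.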

How the results depend on the processing

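The number of members called between TGFβ-iTreg and day 0 cells was 6, and it ranged from 4 to 7 when 1 library was left out; it was 3 without the shallowest day 0 and TGFβ-iTreg libraries together, a fit with fewer samples. The number between mTO-iTreg and day 0 cells was 4 (3 to 4 with 1 library left out), and that between mTO-iTreg and TGFβ-iTreg cells was 4 (3 to 4). No called member changed direction under any alternative. The Gbp2 calls in all 3 contrasts, the 2 Gbp3 calls, the 2 Gbp8 calls, Gbp6 in mTO-iTreg against day 0 and Gbp1 between the iTreg groups were kept in all 22 alternatives. Scaling every library to equal totals moved the median difference of all genes from -0.02 to 0.22 in TGFβ-iTreg and from 0.09 to 0.31 in mTO-iTreg cells against day 0. Under it 75.4% and 70.4% of calls were higher, against 52.6% and 57.1% as reported, and scaling without mitochondrial genes and Rn45s gave 65.6% in the first contrast; Gbp2 then stood at 3.37 and -1.19 under equal totals. The fit of recovered counts with limma-voom called 701 genes higher and 713 lower in the first contrast, against 1074 and 966.

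With a replicate block the numbers of members called were 6, 4 and 5 in the order of the contrasts, Gbp9 being added between the iTreg groups. Same-numbered libraries had correlations of -0.0505 to 0.0604 once group means were removed. With 3 libraries per group such values cannot decide whether the numbers pair the samples. Genes read by few counts, Gbp5, Gbp10 and Gbp11 and day 0 Gbp1, are limited by depth, most of all in day 0 replicate 2 and TGFβ-iTreg replicate 1.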
